A study of Homo sapiens with 4 samples.

Results

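A set of 10 genes of retinoid binding and retinoic acid reception was followed in RNA-seq of breast cancer cells in which QPRT, the enzyme that converts quinolinate into a precursor of NAD, was silenced. They were the binding proteins CRABP1 and CRABP2, the receptors RARA, RARB, RARG and RXRA, the clearance enzymes DHRS3, CYP26A1 and CYP26B1, and the retinoid-responsive gene RARRES1. They were chosen by name, with earlier results of these data known, and matched by Ensembl identifier. All 10 were found among the 50653 genes listed. Their levels were compared between 2 cell lines and, within each line, between a QPRT-targeting and a control short hairpin RNA (shRNA).

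The established human lines used, BT-20 and MDA-MB-468, are breast cancer lines of the triple-negative class, which lacks estrogen receptor, progesterone receptor and HER2 amplification. The study compared 4 groups of 1 library each, which were BT-20 with control shRNA, BT-20 with QPRT shRNA, MDA-MB-468 with control shRNA and MDA-MB-468 with QPRT shRNA. The labels call the cells transfected, and the methods describe lentiviral transduction with pLKO.1-puro vectors followed by puromycin selection, which the control cells received too. Each line is a single isolate, the lines were grown in different media (Eagle's Minimum Essential Medium for BT-20 and Leibovitz's L-15 for MDA-MB-468, both with fetal bovine serum), and effects of line and medium cannot be told apart.

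Retinol is taken up by cells, oxidised to retinaldehyde and then to retinoic acid. Retinoic acid enters the nucleus with the help of CRABP2 and binds heterodimers of a retinoic acid receptor (RAR) and a retinoid X receptor (RXR), which sit on paired copies of a short core sequence and switch target genes between repression and activation. Cells limit the signal by reducing retinaldehyde back to retinol, the reaction of DHRS3, and by hydroxylating retinoic acid with CYP26 enzymes, and several of these genes are themselves known targets of the receptors.

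The classic RAR and RXR element is a direct repeat of the 6-base core with a spacer of 5 bases, and it was searched for because it is the sequence through which the receptors described here act. RefSeq promoter windows (GRCh38.p14, 250 bases before to 50 after a start site) were scanned on both strands for a core of AGGTCA, of AGTTCA, of GGGTCA or of GGTTCA repeated in the same direction, and 31 of 35116 windows held such a pair (0.0883%). The 10 genes had 19 windows, of which 2 held it, 1 of RARB and 1 of CYP26A1. The cores are in capitals below, 5′ to 3′ on the plus strand, with their flanks in lower case. 
RARB: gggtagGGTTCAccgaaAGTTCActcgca
CYP26A1: taaagaTGAACTttgggTGAACTaattgt
The RARB stretch lies at chr3:25428204-25428232, with the repeat on the gene's own strand 53 to 37 bases before the start site and in no annotated exon. The CYP26A1 stretch lies at chr10:93073797-93073825, with the repeat on the minus strand, opposite to the gene, 90 to 74 bases before the start site and within an exon of another CYP26A1 transcript. A single core occurred in 38.6% of all windows and in 9 of the 19, and repeats with a spacer of 1 base (0.131% of all windows) or 2 bases (0.0399%) occurred in none of the 19. These matches describe letters in the reference genome and measure no binding in these cells.

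Expression was deposited as FPKM, the fragments on a gene divided by transcript length and by the library's total. The length that gave back whole fragments was the mean over a gene's annotated transcripts. Comparisons of FPKM between different genes rest on that length. The libraries held 10321996 to 10945948 fragments. QPRT itself, for control and QPRT shRNA in turn, had 249 and 40.5 FPKM in BT-20 against 117 and 18.3 in MDA-MB-468, lower with its shRNA in each line. EPCAM, an epithelial surface marker, ranged from 148 to 359 FPKM, PGR was listed at 0 in every library, ESR1 ranged from 1.05 to 5.76 FPKM and ERBB2 from 50.7 to 129 FPKM. The basal keratin KRT17 had 2.51 to 2.76 FPKM in BT-20 and 237 to 373 in MDA-MB-468. The other basal-like markers were abundant in both lines. KRT5 had 265 to 294 FPKM in BT-20 and 642 to 983 in MDA-MB-468, and EGFR had 179 to 262 and 820 to 951. Of 28 markers of intestinal, gastric and plasma cells, 24 were lower with QPRT shRNA in both lines. Of the 14321 genes with a mean of at least 1 FPKM, 17.7% were, but some of the 28 had a lower mean, so the shares are not like for like. The summed FPKM of the 28 was 109 and 53.3 in BT-20 against 244 and 54.6 in MDA-MB-468, for control and QPRT shRNA in turn. Other tissue markers were also lower in both lines, 4 of 5 stromal and 2 of 4 liver markers.

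The 10 genes fell into the same broad order of levels in both lines. CRABP2, RARRES1 and DHRS3 were the highest in all 4 libraries, RARG, RARA and RXRA were intermediate, CYP26B1 was low, and RARB, CRABP1 and CYP26A1 were close to or at 0. The order of neighbours was not stable, since CRABP2 lay above RARRES1 in BT-20 with control shRNA and below it with QPRT shRNA, and the same held for CRABP1 and RARB in MDA-MB-468. Fewer cells expressing a gene and less RNA per cell cannot be told apart in such bulk libraries.

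**Figure D1:**
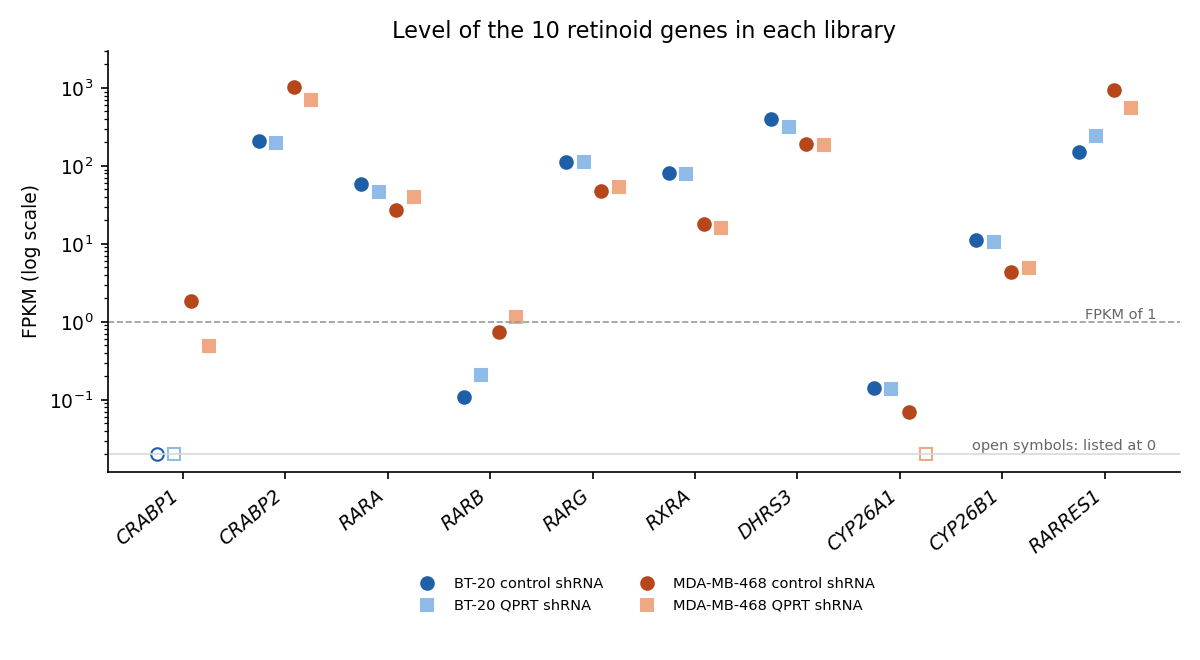
Level of each of the 10 genes in the 4 libraries, as FPKM on a logarithmic axis. Blue marks BT-20 and orange MDA-MB-468, circles the control shRNA and squares the QPRT shRNA, and open symbols at the foot of the axis stand for values listed at 0. CRABP2 and RARRES1 are highest in MDA-MB-468 and DHRS3 in BT-20, while CRABP1, RARB and CYP26A1 stay below 2 FPKM.

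CRABP2 (ENSG00000143320, chr1:156699606-156705816, minus strand, all gene positions on GRCh38) was the most abundant in MDA-MB-468. For control and QPRT shRNA in turn it had 209 and 199 FPKM in BT-20 against 1033 and 706 in MDA-MB-468. The MDA-MB-468 control library placed it 64th of the 14321 genes with a mean of at least 1 FPKM, and the BT-20 control library 576th. Both MDA-MB-468 libraries lay above both BT-20 libraries, 4.93-fold with control shRNA and 3.55-fold with QPRT shRNA.

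CRABP1 (ENSG00000166426, chr15:78340324-78348230, plus strand), the other cellular retinoic acid binding protein, gave 0 fragments in both BT-20 libraries. The upper limit that a count of 0 allows is 3 fragments, which equal 0.483 and 0.470 FPKM there. MDA-MB-468 gave 12 fragments in the control library (1.87 FPKM) and 3 in the QPRT shRNA library (0.497 FPKM). With control shRNA the level was at least 3.88-fold higher in MDA-MB-468, computed against the limit of the BT-20 library, and with QPRT shRNA no ratio of the lines is given because both counts were at or under the limit.

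RARG (ENSG00000172819, chr12:53210567-53232980, minus strand), the RAR that is prominent in skin and other epithelia, had the highest FPKM of the RARs in every library. Its levels were 111 and 113 FPKM in BT-20 against 47.2 and 54.4 FPKM in MDA-MB-468, for control and QPRT shRNA in turn. RARA (ENSG00000131759, chr17:40309192-40357643, plus strand) had 58.1 and 45.7 FPKM in BT-20 against 26.9 and 39.5 in MDA-MB-468. This order depends on the lengths, since in MDA-MB-468 with QPRT shRNA RARA gave 633 fragments and RARG 606. BT-20 was the higher line for both receptors with no overlap, and for RARA the QPRT shRNA libraries of the lines were the closer pair.

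RARB (ENSG00000077092, chr3:25174332-25597932, plus strand), a receptor gene that retinoic acid is known to induce and whose window holds the first repeat shown above, was near the limit of detection. It gave 2 and 4 fragments in BT-20 (0.108 and 0.210 FPKM) against 14 and 21 in MDA-MB-468 (0.732 and 1.16 FPKM). The log2 ratio of fragments between the lines was 2.76 with control shRNA (exact 95% interval from 0.64 to 5.94) and 2.47 with QPRT shRNA (0.90 to 4.47), which covers counting error only. RARB made up 0.0636% to 1.22% of the summed RAR FPKM, RARG 57.2% to 71.2% and RARA 28.7% to 41.6%.

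RXRA (ENSG00000186350, chr9:134317098-134440585, plus strand), the shared partner of the RARs, differed most plainly by line. It had 81.9 and 79.4 FPKM in BT-20 against 17.9 and 15.9 in MDA-MB-468, for control and QPRT shRNA in turn. BT-20 was thus 4.59-fold and 5.01-fold higher. Its paralog RXRB had 46.2 and 44.6 FPKM in BT-20 against 51.6 and 56.6 in MDA-MB-468, and RXRG was listed at 0 in every library. As a share of the summed RXR FPKM, RXRA made up 63.9% and 64.0% in BT-20 but 25.7% and 21.9% in MDA-MB-468, so that the more abundant RXR transcript was RXRA in BT-20 and RXRB in MDA-MB-468. The sum of the RXR genes was 128 and 124 FPKM in BT-20 against 69.5 and 72.5 in MDA-MB-468, and that of the RAR genes was 169 and 159 against 74.8 and 95.04. The ratio of the RXR sum to the RAR sum was 0.757 and 0.778 in BT-20 against 0.928 and 0.762 in MDA-MB-468, with overlapping lines.

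**Figure D2:**
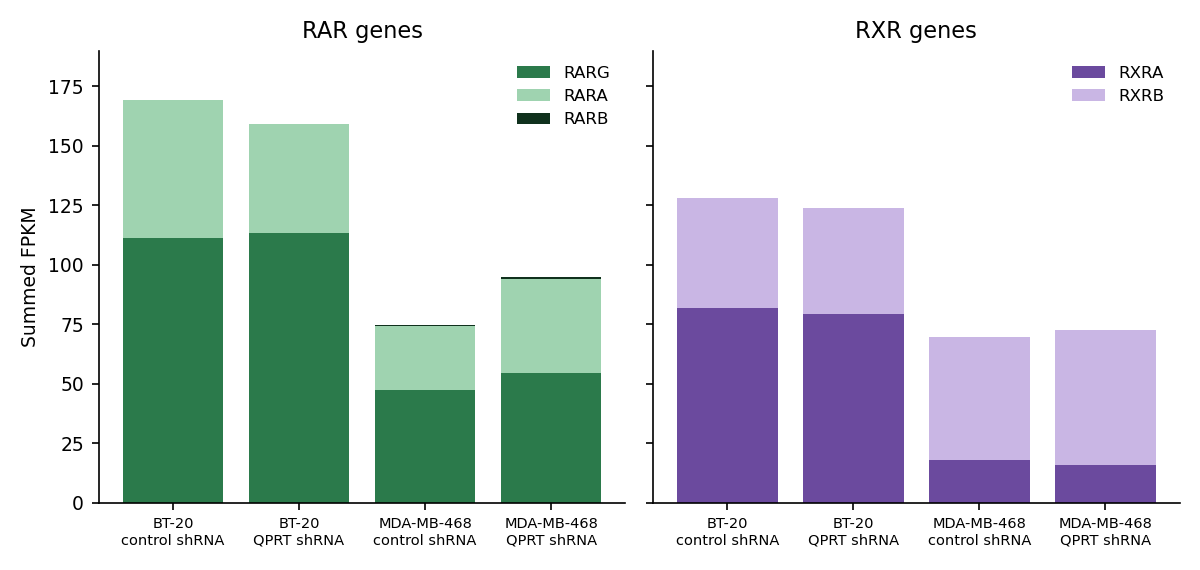
Summed FPKM of the RAR genes (left) and of the RXR genes (right) in each library, with the bars divided by gene and starting at 0. RARG is the largest part of every RAR bar, and RXRA is the larger part of the RXR bar in BT-20 and the smaller part in MDA-MB-468.

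DHRS3 (ENSG00000162496, chr1:12567910-12617731, minus strand), the retinaldehyde reductase, was the most abundant of the 10 genes in BT-20. It had 403 and 314 FPKM in BT-20 against 191 and 187 in MDA-MB-468. CYP26B1 (ENSG00000003137, chr2:72129238-72148038, minus strand) had 11.2 and 10.6 FPKM in BT-20 against 4.398 and 4.90 in MDA-MB-468. Both clearance genes were higher in BT-20 with no overlap between the lines. CYP26A1 (ENSG00000095596, chr10:93073475-93077890, plus strand), a family member that retinoic acid is known to induce strongly and whose window holds the other repeat, gave 2 fragments in each BT-20 library, 1 in MDA-MB-468 with control shRNA and 0 with QPRT shRNA. All 4 values were under the 3 fragments that a count of 0 allows, so a difference was not detectable at this depth. CYP26B1 held 97.3% to 98.7% of the summed CYP26 FPKM.

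RARRES1 (ENSG00000118849, chr3:158696892-158732696, minus strand), a membrane protein gene first known for its induction by a synthetic RAR agonist, had the widest range by ratio of the well-covered genes. For control and QPRT shRNA in turn it had 149 and 244 FPKM in BT-20 against 949 and 557 in MDA-MB-468. MDA-MB-468 lay above BT-20 with either shRNA, 6.38-fold with control shRNA but 2.28-fold with QPRT shRNA. Among the 14321 genes it ranked 920th in the BT-20 control library and 74th in the MDA-MB-468 control library.

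For a test of the cell lines, limma was fitted to log2(FPKM + 1) over all 14321 genes with a mean of at least 1 FPKM, with the shRNA as a term. That mean was met by 7 of the 10 genes, but not by CRABP1, RARB and CYP26A1. A gene can meet it through the line where it is high, so counts over the 7 are a description. All 7 differed at an adjusted p under 0.05, where 55.1% of all genes did. Of these, 2 were higher in MDA-MB-468 (30.7% of all genes were) and 5 were lower (24.4%). The libraries of the lines did not overlap for any of the 7, which held for 77.6% of all genes, so these counts rest on a background in which the lines differ widely.

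The genes higher in MDA-MB-468 were CRABP2, by 2.06 on the log2 scale (SE 0.188, limma adjusted p = 2.20e-26), and RARRES1, by 1.93 (SE 0.189, adjusted p = 4.46e-23). Among the receptors, RXRA was lower in MDA-MB-468 by -2.20 (SE 0.216, limma adjusted p = 9.20e-23) and RARG by -1.13 (SE 0.204, adjusted p = 1.42e-07). Of the clearance enzymes, CYP26B1 was lower by -1.07 (SE 0.263, limma adjusted p = 0.000149) and DHRS3 by -0.91 (SE 0.191, adjusted p = 7.66e-06). RARA was lower by -0.64 (SE 0.214, limma adjusted p = 0.00627). At 2-fold or more with both shRNAs in the same direction stood CRABP2, RARG, RXRA and RARRES1 (4 of the 7, against 23.3% of all genes), and at 4-fold RXRA only (7.21% of all genes).

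These errors come from the spread of all genes, since limma gave each gene the pooled value. The residual SD of RARRES1 itself was 0.738 where 0.189 was used, and that of RARA was 0.440 where 0.214 was used. Leaving out a library ended the call for 3 genes. Without the BT-20 control library RARRES1 gave 1.57 with a limma adjusted p of 0.0625, without the MDA-MB-468 QPRT library DHRS3 gave an adjusted p of 0.0502, and RARA passed in none of the 4 fits (adjusted p 0.0514 to 0.290). RARA was also not called after a trend on GC content and length was removed (-0.39, limma adjusted p = 0.0676) or with no filter on low values (adjusted p = 0.157), and was called in 7 of the 9 alternatives that kept all libraries. CRABP2, RARG, RXRA and CYP26B1 passed in each fit without 1 library, with adjusted p between 0.00745 and 0.0479.

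**Figure D3:**
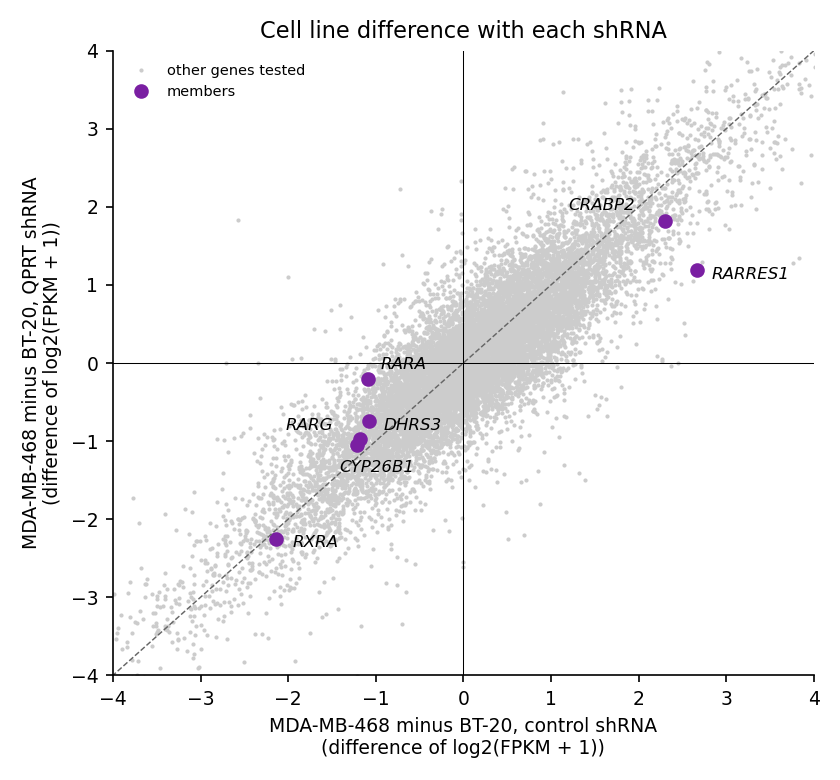
Difference between MDA-MB-468 and BT-20 on the log2(FPKM + 1) scale with control shRNA (horizontal) and with QPRT shRNA (vertical) for the 14321 genes tested (grey) and the 7 retinoid genes among them (labelled). Genes beyond the axes are not drawn. CRABP2 and RARRES1 lie at the upper right, RARRES1 below the diagonal at 2.66 and 1.19, and the other 5 at the lower left, RXRA farthest at -2.14 and -2.25.

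Within each line, the QPRT shRNA libraries were set against the control shRNA libraries. With 1 library per line and shRNA there was no replicate check and no test. None of the 7 genes reached 2-fold in BT-20, where 1.70% of all genes did, or in MDA-MB-468, where 1.89% did. Their median difference was -0.073 for BT-20 and -0.032 for MDA-MB-468 on the log2(FPKM + 1) scale, and that of all genes was 0.048 and 0.011.

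RARRES1 had the widest differences of the 7 genes in both lines, and with opposite signs. In BT-20 its FPKM differed by 63.9% with QPRT shRNA, a log2(FPKM + 1) difference of 0.71, and in MDA-MB-468 by -41.3%, a difference of -0.77. The exact intervals of the log2 ratio of fragments ran from 0.61 to 0.82 and from -0.82 to -0.72, so counting error is small beside either value. In BT-20, 5.21% of all genes moved at least as far, and in MDA-MB-468 4.35% did. It was 1 of 112 genes (0.782%) that moved by at least 1.5-fold in opposite directions.

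RARA also differed in opposite directions, by -0.34 in BT-20 (-21.4% in FPKM) and by 0.54 in MDA-MB-468 (46.9%). The intervals of its fragment ratio were -0.49 to -0.21 and 0.38 to 0.73, and 28.2% and 11.3% of all genes moved as far. Differences of all genes followed GC content with opposite signs in the lines (Spearman's rho across 14232 genes -0.283 for BT-20 and 0.288 for MDA-MB-468, a description since genes are not replicates). RARA transcripts have 62.5% GC, where the median gene has 49.5%, and with that trend and that of length removed the differences were -0.23 and 0.42. For RARRES1, with 50.2% GC, they were 0.84 and -0.81.

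CRABP2 was lower with QPRT shRNA in MDA-MB-468, by -0.55 on the log2(FPKM + 1) scale (fragment interval -0.60 to -0.50), and 10.7% of all genes moved as far. In BT-20 its difference was -0.073, with a fragment interval from -0.17 to 0.022 that includes 0, and it turned to 0.11 with the GC and length trend removed. DHRS3 showed the converse, with -0.36 in BT-20 (-22.02% in FPKM, interval -0.42 to -0.29) and -0.032 in MDA-MB-468 (interval -0.12 to 0.056).

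The remaining differences were smaller. RARG differed by 0.030 and 0.20, RXRA by -0.044 and -0.16, and CYP26B1 by -0.075 and 0.13, in BT-20 and MDA-MB-468 in turn. The fragment intervals of all 3 included 0 in BT-20 and, for CYP26B1, in MDA-MB-468 too. Among the scarce genes, the CRABP1 counts of 12 and 3 fragments in MDA-MB-468 gave a log2 ratio with a wide counting interval (-1.92, interval -4.38 to -0.026), and the intervals of RARB included 0 in both lines (-1.84 to 4.43 and -0.37 to 1.76).

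**Figure D4:**
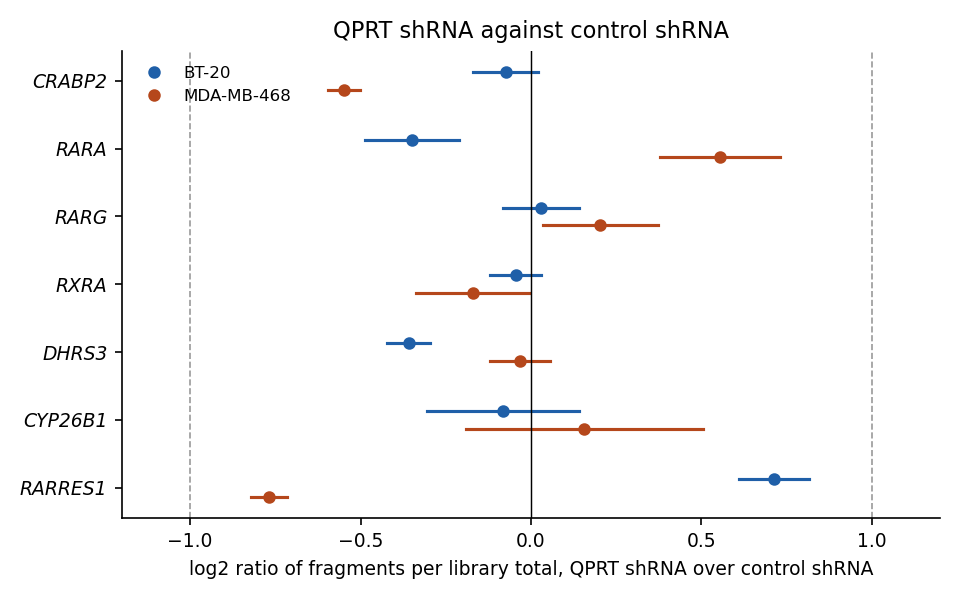
Difference between QPRT shRNA and control shRNA for the 7 well-covered retinoid genes in each line (BT-20 blue, MDA-MB-468 orange), as a log2 ratio with the exact 95% counting interval of its fragments (bars), with dashed lines at 2-fold. RARRES1 and RARA lie on opposite sides of 0 in the 2 lines, and the other well-covered genes lie within 0.6 of 0.

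Over both lines, limma with the cell line as a term called none of the 7 genes, where 0.628% of all genes were called. Every adjusted p was 1.00, none of the 7 had an unadjusted p under 0.05, and limma-voom on the fragments also called 0. The lowest unadjusted p was that of CRABP2, 0.0990, at -0.31 (SE 0.188). By sign alone, CRABP2, RXRA and DHRS3 were lower in both lines (17.7% of all genes were), RARG was higher in both (26.2%), and RARA, CYP26B1 and RARRES1 had opposite signs (54.6%).

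Around these genes, a list of 62 further genes of retinoid uptake, synthesis, clearance, reception and response was examined, of which 61 were listed and 41 had a mean of at least 1 FPKM. It was written with earlier results of these data known, so its counts are a description. In BT-20, QPRT shRNA gave 3 of the 41 at 2-fold or more above control and 2 at 2-fold or more below it, against 1.05% and 0.649% of all genes. In MDA-MB-468 0 were higher and 3 lower, against 1.03% and 0.866%. The limma fit over both lines called 1 higher and 2 lower (0.265% and 0.363% of all genes), and the fit of the lines called 12 with more and 13 with less in MDA-MB-468 (30.7% and 24.4% of all genes).

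The 3 genes called with QPRT shRNA act ahead of the receptors. DHRS9, a retinol dehydrogenase of the synthesis branch, had, for control and QPRT shRNA in turn, 1.45 and 22.9 FPKM in BT-20 (25 and 404 fragments) against 0.0564 and 0.478 in MDA-MB-468 (1 and 8 fragments). It rose by 1.88 (SE 0.295, limma adjusted p = 2.63e-07), the mean of a BT-20 difference of 3.28 and an MDA-MB-468 difference of 0.48, and its own residual SD was 1.40. The BT-20 pair gave most of the fragments behind it.

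RBP2, which carries retinol in absorptive intestinal cells, fell in both lines. It had 10.8 and 3.43 FPKM in BT-20 against 17.5 and 5.12 in MDA-MB-468, a limma change of -1.50 (SE 0.260, adjusted p = 8.08e-06). ALDH1A1, a retinaldehyde dehydrogenase, had 3.39 and 1.34 FPKM in BT-20 against 22.7 and 9.58 in MDA-MB-468, a limma change of -1.03 (SE 0.268, adjusted p = 0.0241). ADH1C, an alcohol dehydrogenase that also oxidises retinol, had 2.61 and 0.976 FPKM and 5.64 and 1.96 FPKM, and did not pass (limma adjusted p = 0.0711), and its reads may be shared with near-identical paralogs. With the GC and length trend removed, with no filter, or without the cell line term, limma called none of DHRS9, RBP2 and ALDH1A1 (adjusted p 0.239 to 1.00), while with the trend removed their changes were 1.88, -1.49 and -0.997. On fragments, limma-voom called DHRS9 but neither RBP2 (adjusted p = 0.0546) nor ALDH1A1 (adjusted p = 0.142). Of the 28 intestinal, gastric and plasma cell markers described above, 17 had counting intervals wholly below 0 in both lines, and their part in these falls was not tested. The share of all genes with such intervals was not counted. CDX2, a transcription factor that defines intestinal epithelium, was too scarce to compare, with 4 and 1 fragments in BT-20 (0.163 and 0.0396 FPKM) against 9 and 4 in MDA-MB-468 (0.355 and 0.167 FPKM). Of these markers, 2 and 4 were at 0 in BT-20 against 0 and 4 in MDA-MB-468.

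In BT-20, ALDH1A2, another retinaldehyde dehydrogenase, had 1.18 FPKM with control and 4.52 FPKM with QPRT shRNA, while the MDA-MB-468 values were 7.33 and 6.89. RET, a receptor tyrosine kinase gene that retinoic acid induces in neural cells, had 11.1 and 4.03 FPKM in BT-20 against 0.414 and 0.345 in MDA-MB-468. TGM2, a transglutaminase and a classic retinoic acid target, had 4.32 and 8.59 FPKM in BT-20 against 0.419 and 0.363 in MDA-MB-468. These 3 differed by 1.34, -1.26 and 0.85 in BT-20 on the log2(FPKM + 1) scale, with no replicate check. In MDA-MB-468 the counting interval of the log2 fragment ratio was -0.53 to 0.35 for ALDH1A2. RET and TGM2 had 11 and 9 fragments each there, and the same interval of -1.65 to 1.204. The fragments of RET were rounded from values that were not whole, so its interval is approximate. A change of RET or of TGM2 could not be seen in that line.

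Between the lines themselves, the wider list held differences of at least 4-fold. AKR1B10, an aldo-keto reductase active on retinaldehyde whose close paralogs may share its reads, had 724 and 655 FPKM in BT-20 against 84.5 and 46.8 in MDA-MB-468 (limma -3.43, SE 0.192, adjusted p = 1.77e-68). PRAME, a tumour antigen and repressor of RAR signalling, had 24.0 and 34.9 FPKM in BT-20 against 0.0653 and 0.0693 in MDA-MB-468. STRA8, a germ cell gene named for its response to retinoic acid, had 7.49 and 6.65 FPKM in BT-20 and was listed at 0 in MDA-MB-468. CYP2S1, a cytochrome that metabolises retinoids, had 1.44 and 1.23 FPKM in BT-20 against 11.96 and 12.2 in MDA-MB-468 (limma 2.49, SE 0.276, adjusted p = 3.90e-18).

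**Figure D5:**
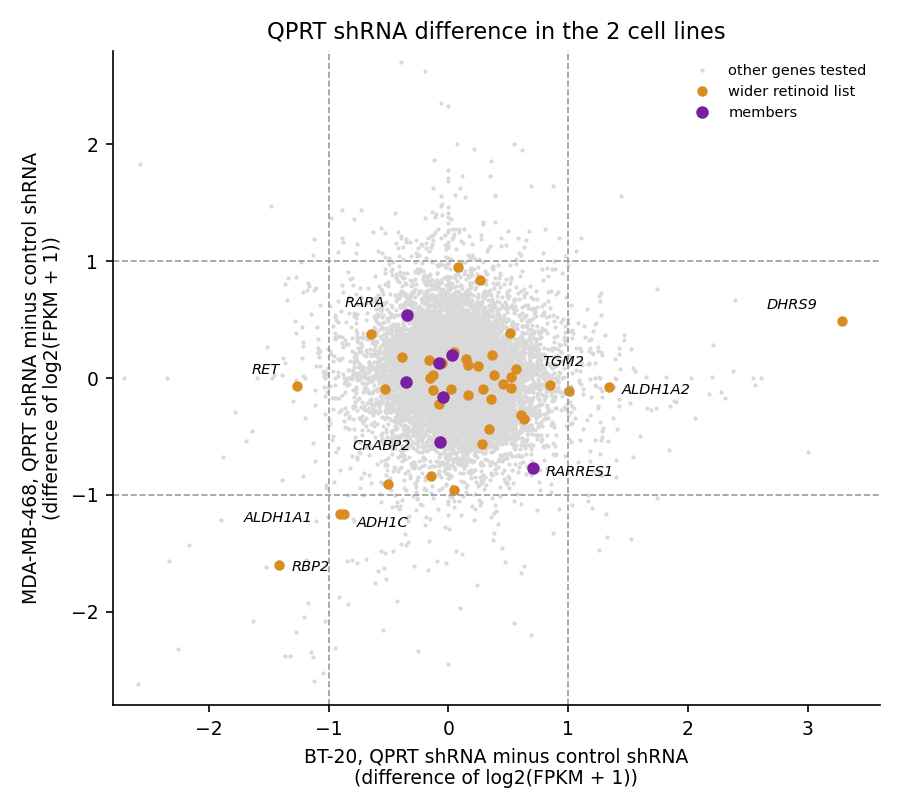
Difference between QPRT shRNA and control shRNA on the log2(FPKM + 1) scale in BT-20 (horizontal) and MDA-MB-468 (vertical) for all tested genes (grey), the 7 retinoid members and the 41 further retinoid genes (coloured), with dashed lines at 2-fold. Genes beyond the axes are not drawn. RBP2 and ALDH1A1 lie at the lower left, DHRS9 far to the right at 3.28 and 0.48, and RARRES1 at the lower right.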

How the data were processed

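Total RNA from 4 cultures was made into libraries with the Illumina TruSeq kit and sequenced by the authors, who trimmed the reads and deposited FPKM per gene. The submitters' processing notes name CASAVA, FastQC, MultiQC, TopHat2 2.0.12 and HTSeq 0.6.1, and the genome build and annotation are not given in the sources used here. The authors used DESeq2, and that count test was not run on FPKM.

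Symbols were matched for 49414 rows, and positions and lengths came from GENCODE 29 (GRCh38). Fragments were recovered from FPKM, the mean length of a gene's annotated transcripts and the library total. They were whole within 0.02 for 97.6% to 97.8% of the values above 0 of single-transcript genes and for 87.3% to 87.6% of all values. Those of RXRA came out up to 0.459 from a whole number and those of RET up to 0.439. Among the plasma cell markers, those of IGHA1 were up to 0.434 off and those of IGHM up to 0.484. All were rounded. Clopper-Pearson 95% intervals and the limit of 3 fragments cover counting error only, since no molecular identifiers were used.

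Differences were taken on log2(FPKM + 1), which understates the change of low genes, for 14321 genes, those whose mean FPKM was 1 or more. Genes were called at 2-fold within a line. limma 3.58.1 (R 4.3.3, eBayes with trend, Benjamini-Hochberg over all 14321 genes, threshold 0.05) was fitted with cell line and shRNA as terms, with 1 residual degree of freedom. Libraries of the other shRNA or line stand in for replicates, and limma gave each gene the spread pooled over all genes of these samples. The p-values rest on that pooled spread, not on a gene's own spread or on a spread between replicates. A single gene compared exactly as 2 libraries against 2 could not go below p = 0.333. In simulated data, 200 of the 14321 genes were given a 4-fold change. The fit recovered 100% of them in either comparison, with 7.41% false calls for the shRNA and 4.76% for the lines. The simulated noise was normal with the spread that the fit itself assigns, and only well-expressed genes were changed. These rates thus check that the fit runs as intended. They do not apply to genes at low levels or with a wider spread of their own. The alternatives were a pseudocount of 0.1, upper quartile and TPM scaling, no filter, a mean of at least 5, 1.5-fold, removal of a lowess trend (fraction 0.3) on GC content and length, limma-voom on fragments, other model terms, no eBayes trend and leaving out each library.

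The members and gene lists were chosen with earlier results of these data known. Named genes outside the 10 were those of the wider list that were called, or changed at least 2-fold, with QPRT shRNA, or differed at least 4-fold between the lines, at most the 12 largest. Values of some genes of the wider list are not reported here, and the counts over the list include them. RXRB, RXRG and the genes of the last part of the closing section were chosen after their values were seen. Promoter windows were from RefSeq. The software was matplotlib 3.10.9, statsmodels 0.14.6, scipy 1.17.1, pandas 2.3.3, numpy 2.4.6 and Python 3.11.15.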

Additional observations from a re-analysis of the deposited data

Results flagged for a closer look

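Among the retinoid genes named in the text, 11 had differences of opposite sign between QPRT shRNA and control shRNA in the 2 lines. Whether the lines differed was not tested, because 4 libraries leave no residual degree of freedom for that, and 54.6% of all genes had opposite signs. For 5 of the 11 the counting interval of the fragment ratio excluded 0 in both lines. On the log2(FPKM + 1) scale these were RARRES1, with 0.71 for BT-20 and -0.77 for MDA-MB-468, RARA with -0.34 and 0.54, STRA6 with 0.60 and -0.31, NCOA3 with 0.34 and -0.43, and NCOR1 with 0.28 and -0.56. The intervals cover counting error only, and with 1 library per group the opposite signs are not established for any of the 11. The share of all genes whose intervals exclude 0 in both lines with opposite signs was not counted. For the genes outside these 5, the interval included 0 in at least 1 line. It did so in MDA-MB-468 for ALDH1A2 (1.34 and -0.080) and TGM2 (0.85 and -0.057), in BT-20 for ALDH1A3 (0.050 and -0.96) and RXRB (-0.050 and 0.13), and in both lines for CYP26B1 (-0.075 and 0.13) and CYP2S1 (-0.13 and 0.022).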

How the results depend on the processing

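The numbers of genes at 2-fold or more, 244 for BT-20 and 271 for MDA-MB-468, were 792 and 756 with a pseudocount of 0.1, 370 and 417 with no filter, 103 and 96 at a mean of at least 5 FPKM, and 1286 and 1313 at 1.5-fold. At 1.5-fold, 1 of the 7 retinoid genes was counted for BT-20 and 1 for MDA-MB-468, RARRES1 in both. For the shRNA, limma called 90 genes, and 687 had an unadjusted p under 0.05, where 716 were expected by chance. The number called was 45 at a mean of at least 5 FPKM and 1 with the GC and length trend removed. With no filter it was 0 (807 at an unadjusted p under 0.05, 1421 expected). Without the cell line term it was 0 (17 at an unadjusted p under 0.05, 716 expected). The calls of DHRS9, RBP2 and ALDH1A1 were lost in those last 3 fits, those of RBP2 and ALDH1A1 also with limma-voom on fragments, and their adjusted p reached 1.00, though with the trend removed their changes stayed at 1.88, -1.49 and -0.997. The 7893 genes called between the lines became 4475 to 4848 with 1 library left out, and the 7 retinoid genes 5 to 6. RBP2, not called between the lines, turned from 0.56 to -0.15 without the BT-20 QPRT library and to -0.24 without the MDA-MB-468 control library, and its highest value with 1 library left out was 1.36.

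With the GC and length trend removed, differences with QPRT shRNA turned to 0.11 for CRABP2 and 0.036 for CYP2S1 in BT-20, to -0.11 for CYP2S1 and -0.039 for PRAME (1 fragment in each library) in MDA-MB-468, and to -0.011 for CYP26B1 and 0.012 for RARRES1 over both lines. RXRA in BT-20 turned to 0.0027 with TPM scaling, and CYP2S1 in MDA-MB-468 to -0.00039 with upper quartile scaling. The cause was not tested. The labels carry no replicate numbers, and the limma fit compares the shRNAs within lines through its cell line term. Leaving out a library was not possible for the shRNA comparison within a line. At this depth CRABP1, RARB and CYP26A1, with 21 fragments at most in a library, have wide counting intervals.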

Other observations

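All 10 coregulators of nuclear receptors in the wider list, 2 of them named here after their values were seen, were higher with QPRT shRNA in BT-20, by 0.025 to 0.52 on the log2(FPKM + 1) scale, and 4 were higher in MDA-MB-468. Of all genes, 56.4% and 51.5% were higher, and none of the 10 passed limma's test over both lines. Among the 4 was PRAME, with 1 fragment in each MDA-MB-468 library. Differences of all genes followed GC content with opposite signs in the lines (Spearman's rho -0.283 for BT-20 and 0.288 for MDA-MB-468). That trend was not removed from the values given here, and its part in them was not tested. The corepressor NCOR1 had 50.9 and 61.9 FPKM in BT-20 against 36.6 and 24.4 in MDA-MB-468, for control and QPRT shRNA in turn. The coactivator NCOA3 had 52.0 and 66.1 FPKM in BT-20 against 19.8 and 14.4 in MDA-MB-468.

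The genes of uptake and synthesis at the highest levels were also named after their values were seen. STRA6, the cell surface receptor for retinol bound to its plasma carrier, had 73.6 and 112 FPKM in BT-20 against 95.1 and 76.4 in MDA-MB-468. RDH10, the main retinol dehydrogenase of the embryo, had 63.4 and 90.9 FPKM and then 39.1 and 51.4. ALDH1A3, a retinaldehyde dehydrogenase, had 73.4 and 76.1 FPKM in BT-20 against 77.2 and 39.2 in MDA-MB-468, a difference of -0.96 in the latter line with no replicate check. PLAAT4, a retinoid-responsive phospholipase gene, had 106 and 73.4 FPKM in BT-20 against 279 and 262 in MDA-MB-468. FABP5, the other carrier that can deliver retinoic acid to a nuclear receptor, had at most 0.346 FPKM in any library, a value that is uncertain because near-identical processed pseudogenes can share its reads.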
